A study of Caenorhabditis elegans with 10 samples.

Results

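Transthyretin-related genes are a large nematode family, named ttr and numbered, that was examined here in a comparison of sorted sensory neurons with other cells of the worm Caenorhabditis elegans. The members are the 59 genes whose name in the table is ttr followed by a number, of 46272 genes in all, a rule that uses names and no measured values. Of these, 58 are protein-coding and 1, ttr-4, is a pseudogene. The proteins are small and mostly carry a signal for secretion, and they resemble distantly the vertebrate carrier of thyroid hormone and retinol from which the family takes its name. Members of the family are also among the proteins that parasitic nematodes release. The best studied worm member, TTR-52, is secreted and bridges phosphatidylserine on the surface of dying cells to the receptor CED-1 on the cell that engulfs them, and it also takes part in the fusion of severed axons. No protein or promoter sequence of these genes was used here.

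The cells came from wild-type, untreated worms grown on standard nematode growth medium plates, and those of both groups were sorted by fluorescence. Cells with a YFP label for ASH, a pair of head neurons that sense high osmolarity, touch and repellents, made up 5 libraries. The other 5 libraries, called non-ASH here, hold sorted cells that lacked YFP. The promoter that drove YFP and the age of the worms are not stated in the labels, and non-ASH is a mixture of every cell type left after the sort. The authors' deposited table gives 1 FPKM value per group, so levels are printed without a standard deviation or n, the depth is unknown, and no standard error is given for any fold change. Fold changes are the authors' DESeq2 values on the log2 scale with ASH over non-ASH, and a gene is called where their adjusted p (Benjamini-Hochberg) is under 0.05. Whether the 5 libraries of a group stem from separate cultures or sorts is not stated, and the adjusted p may therefore reflect technical spread alone. In such bulk samples, fewer cells of a type and less RNA per cell cannot be told apart.

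Most ASH markers were higher in ASH, while the non-ASH label had no marker list of its own. Of 11 ASH markers, the authors' deposited table had 9 higher in ASH, with a summed level of 806 FPKM in ASH against 120 FPKM in non-ASH. The only 2 not called were eat-4 and qui-1. Intestine markers were also more abundant in ASH, with 4 of 12 higher and a sum of 7079 FPKM in ASH against 1920 FPKM in non-ASH. Most of that sum came from asp-1, at 3660 FPKM in ASH against 692 FPKM in non-ASH, and from vit-2. The latter was not called, at 1657 FPKM in ASH against 537 FPKM in non-ASH. Fold changes were positive for 11 of the 12. The exception was act-5, at 27.6 FPKM in ASH against 66.6 FPKM in non-ASH, which only Cuffdiff called lower (q = 0.0213). Pharynx and pharyngeal gland markers had the opposite pattern, with 6 of 10 lower and a sum of 35.5 FPKM in ASH against 444 FPKM in non-ASH. Of the coelomocyte markers 3 of 4 were lower, with 35.8 FPKM in ASH against 118 FPKM in non-ASH. Of the epidermis markers 4 of 10 were lower and 1 higher, with 856 FPKM in ASH against 816 FPKM in non-ASH. Of the glia markers 3 of 9 tested were lower and 1 higher, with 129 FPKM in ASH against 189 FPKM in non-ASH and 7 of the 10 listed at under 1 FPKM in ASH. Body wall muscle markers had 1 of 8 higher and 2393 FPKM in ASH against 2045 FPKM in non-ASH, and pan-neuronal markers had 1 of 10 higher and 983 FPKM in ASH against 511 FPKM in non-ASH. Which of these cell types express which ttr genes is not given in the files, and the part of these markers in the results below was not tested.

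Some members were higher in ASH and others lower. By DESeq2, 55 members of the authors' deposited table had an adjusted p. Of these, 11 were higher in ASH, which is 20% of the 55, beside 5.32% of all 16802 tested genes. A further 5 were lower in ASH, which is 9.09%, beside 4.44% of all tested genes. The remaining 39 were not called, 18 with a positive and 21 with a negative fold change. The median log2 fold change of the 55 was 0.27, beside -0.09 over all tested genes. Members are abundant, and among genes of at least 5 FPKM in either group the shares were 23.9% higher and 10.9% lower for 46 members, beside 7.24% and 5.67% of 9921 genes. At an adjusted p under 0.01, 9 members were higher and 3 lower, beside 2.67% and 2.06% of all tested genes. With a change of at least 2-fold, 10 were higher and 5 lower, beside 4.9% and 4.08%. Among protein-coding genes alone the background was 5.34% higher and 4.61% lower. The 4 members without an adjusted p were near 0, with ttr-4 at 0 FPKM in both groups and ttr-19, ttr-55 and ttr-57 no higher than 0.216 FPKM (ASH) and 0.593 FPKM (non-ASH). Reads may be shared between similar members, and the authors' rule for counting such reads is not stated, which leaves the values of single members uncertain to that extent.

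**Figure D1:**
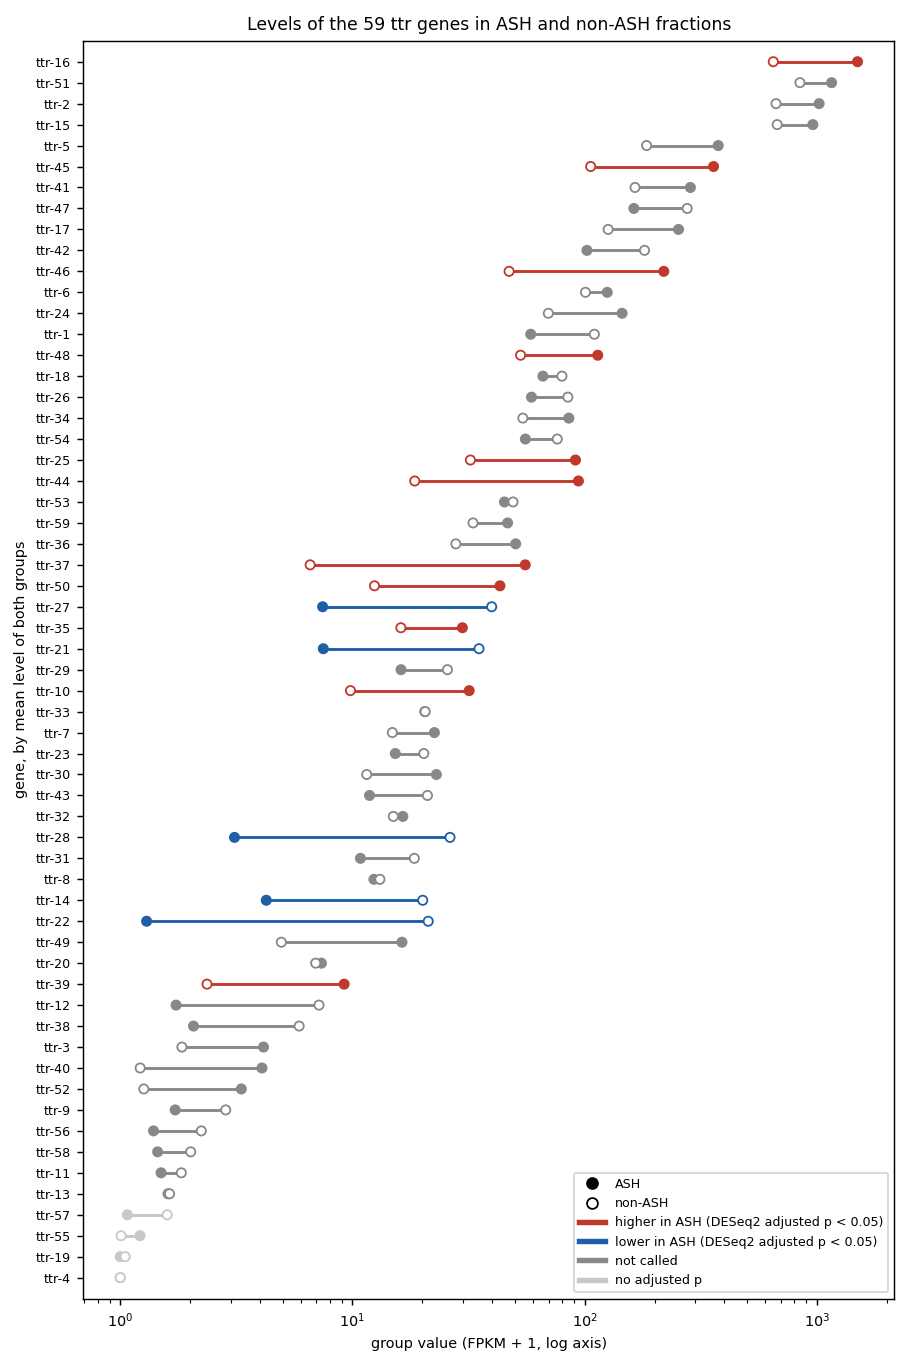
Group value of each of the 59 ttr genes in ASH (filled circles) and non-ASH (open circles), as FPKM + 1 on a log axis, with genes ordered by their mean level. Red lines mark the 11 genes higher in ASH, blue lines the 5 lower, dark grey those not called and light grey the 4 without an adjusted p, and each group has 1 deposited value per gene. The mean of both groups lies between 4.79 and 1073 FPKM for the red genes, with none among the scarcest members, while in ASH the blue genes lie between 0.299 and 6.49 FPKM.

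As levels, ttr transcripts spanned from 0 to 1497 FPKM in ASH and from 0 to 845 FPKM in non-ASH. The median member stood at 21.5 FPKM in ASH against 19.6 FPKM in non-ASH, beside medians of 2.47 FPKM and 2.85 FPKM over all protein-coding genes. The top 10% of protein-coding genes by level held 17 members in ASH and 15 in non-ASH. Summed over the family, the level was 7772 FPKM in ASH, or 0.683% of the sum over protein-coding genes, and 5051 FPKM in non-ASH, or 0.537%. A few members made up most of this sum, since the 5 most abundant held 64.5% of it in ASH and 61.6% in non-ASH. At the other end, 11 members were under 1 FPKM in ASH and 9 in non-ASH, 6 of them in both.

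The abundant transcripts ttr-16, ttr-51, ttr-2 and ttr-15 were among the 5 highest in both groups, and only ttr-16 of these was called. It was listed at 1497 FPKM in ASH against 649 FPKM in non-ASH, and its log2 fold change was 1.14 (DESeq2 adjusted p = 0.00562), per the authors' deposited table. In ASH it ranked at 133 among protein-coding genes by level. The gene ttr-51 had 1158 FPKM in ASH against 845 FPKM in non-ASH, a log2 difference of 0.49 that was not called (DESeq2 adjusted p = 0.476), per the authors' deposited table. For ttr-2 the authors' deposited table listed 1023 FPKM in ASH against 666 FPKM in non-ASH (log2 change 0.50, DESeq2 adjusted p = 0.634). For ttr-15 it listed 961 FPKM in ASH against 674 FPKM in non-ASH (log2 change 0.41, DESeq2 adjusted p = 0.563). All of these were more abundant in ASH as values, and the difference passed the threshold for ttr-16 alone. The fifth place went to ttr-5 in ASH, at 375 FPKM there and 184 FPKM in non-ASH (log2 fold change 1.03 per the authors' deposited table, DESeq2 adjusted p = 0.134). In non-ASH it went to ttr-47, which had 162 FPKM in ASH against 276 FPKM in non-ASH (log2 fold change -0.77 per the authors' deposited table, DESeq2 adjusted p = 0.207).

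The 11 genes higher in ASH had log2 fold changes between 0.91 and 2.97 and ranged from 8.21 to 1497 FPKM in ASH. The largest change belonged to ttr-37, listed at 54.5 FPKM in ASH against 5.57 FPKM in non-ASH, a ratio of 9.78 and a log2 fold change of 2.97 (DESeq2 adjusted p = 0.00216), per the authors' deposited table. Next came ttr-44, with 93.0 FPKM in ASH against 17.5 FPKM in non-ASH and 2.41 as log2 fold change (DESeq2 adjusted p = 0.00269), per the authors' deposited table. The level of ttr-46 was 218 FPKM in ASH against 46.3 FPKM in non-ASH, and a log2 change of 2.14 (DESeq2 adjusted p = 0.00635), per the authors' deposited table. Of these 3 genes, only ttr-46 was above the family's median level in non-ASH, 19.6 FPKM. All 3 rose by more than 4-fold, as did ttr-39. The last of these was much scarcer, at 8.21 FPKM in ASH against 1.36 FPKM in non-ASH, and a log2 change of 1.97 (DESeq2 adjusted p = 0.00218), per the authors' deposited table.

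Other genes that rose had FPKM ratios under 4. The smallest adjusted p of the family was that of ttr-10, 0.000197 by DESeq2, at 30.8 FPKM in ASH against 8.81 FPKM in non-ASH with 1.80 as log2 fold change per the authors' deposited table. The abundant ttr-45 had 358 FPKM in ASH against 105 FPKM in non-ASH, and a log2 change of 1.81 (DESeq2 adjusted p = 0.000737), per the authors' deposited table. For ttr-50 the authors' deposited table listed 42.2 FPKM in ASH against 11.4 FPKM in non-ASH, and a log2 change of 1.83 (DESeq2 adjusted p = 0.00181). The ASH marker genes had a median log2 fold change of 3.03, above that of each of the 11. The gene ttr-25 had 90.3 FPKM in ASH against 31.2 FPKM in non-ASH, and a log2 change of 1.50 (DESeq2 adjusted p = 0.0343), per the authors' deposited table. At 113 FPKM in ASH against 51.99 FPKM in non-ASH, ttr-48 had a log2 change of 1.17 (DESeq2 adjusted p = 0.00787), per the authors' deposited table. The smallest change called was that of ttr-35, with 28.8 FPKM in ASH against 15.2 FPKM in non-ASH and a log2 change of 0.91 (DESeq2 adjusted p = 0.0252), per the authors' deposited table. It was the only gene of the 11 below 2-fold. Together the 11 genes summed to 2534 FPKM in ASH against 943 FPKM in non-ASH, to which ttr-16 alone gave the larger part. ASH and intestine markers also summed to more in ASH, as given above. So did pan-neuronal, body wall muscle and epidermis markers, but their median log2 fold changes were 0.27, -0.001 and -1.04. The FPKM sum over all protein-coding genes was itself 1.21 times as high in ASH as in non-ASH. The body wall muscle and epidermis sums rose by less than that, so as a share of that sum both were lower in ASH. In the epidermis sum, col-19 alone gave 792 FPKM in ASH against 711 FPKM in non-ASH. The part of these lists in the 11 differences was not tested.

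The 5 genes lower in ASH were of similar level in non-ASH, between 19.1 and 38.8 FPKM, and all were at 6.49 FPKM or less in ASH. The largest difference was that of ttr-22, at 0.299 FPKM in ASH against 20.2 FPKM in non-ASH, and its log2 fold change was -3.51 (DESeq2 adjusted p = 0.00236), per the authors' deposited table. Its FPKM were 67.7 times as high in non-ASH as in ASH, and since the ASH value is near 0 and the depth unknown, that ratio has no stated precision. For ttr-28 the authors' deposited table listed 2.11 FPKM in ASH against 25.3 FPKM in non-ASH, and a log2 change of -2.92 (DESeq2 adjusted p = 0.00318). The remaining 3 were 5-fold to 7-fold apart. The gene ttr-21 had 6.49 FPKM in ASH against 34.1 FPKM in non-ASH, and a log2 change of -2.37 (DESeq2 adjusted p = 0.000533), per the authors' deposited table. With 6.44 FPKM in ASH against 38.8 FPKM in non-ASH, ttr-27 had a log2 change of -2.34 (DESeq2 adjusted p = 0.0144), per the authors' deposited table. At 3.25 FPKM in ASH against 19.1 FPKM in non-ASH, ttr-14 had a log2 change of -2.05 (DESeq2 adjusted p = 0.0162), per the authors' deposited table. As a sum the 5 genes came to 18.6 FPKM in ASH against 137 FPKM in non-ASH. Pharynx and coelomocyte markers also summed to less in ASH, as given above. Epidermis markers did not, although 4 of 10 were called lower and 1 higher. Glia markers summed to less in ASH, but the median log2 fold change of the 9 tested was 0.36. Of the glia sum, T02B11.3 alone gave 34.5 FPKM in ASH against 144 FPKM in non-ASH. The part of these lists in the 5 differences was not tested.

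**Figure D2:**
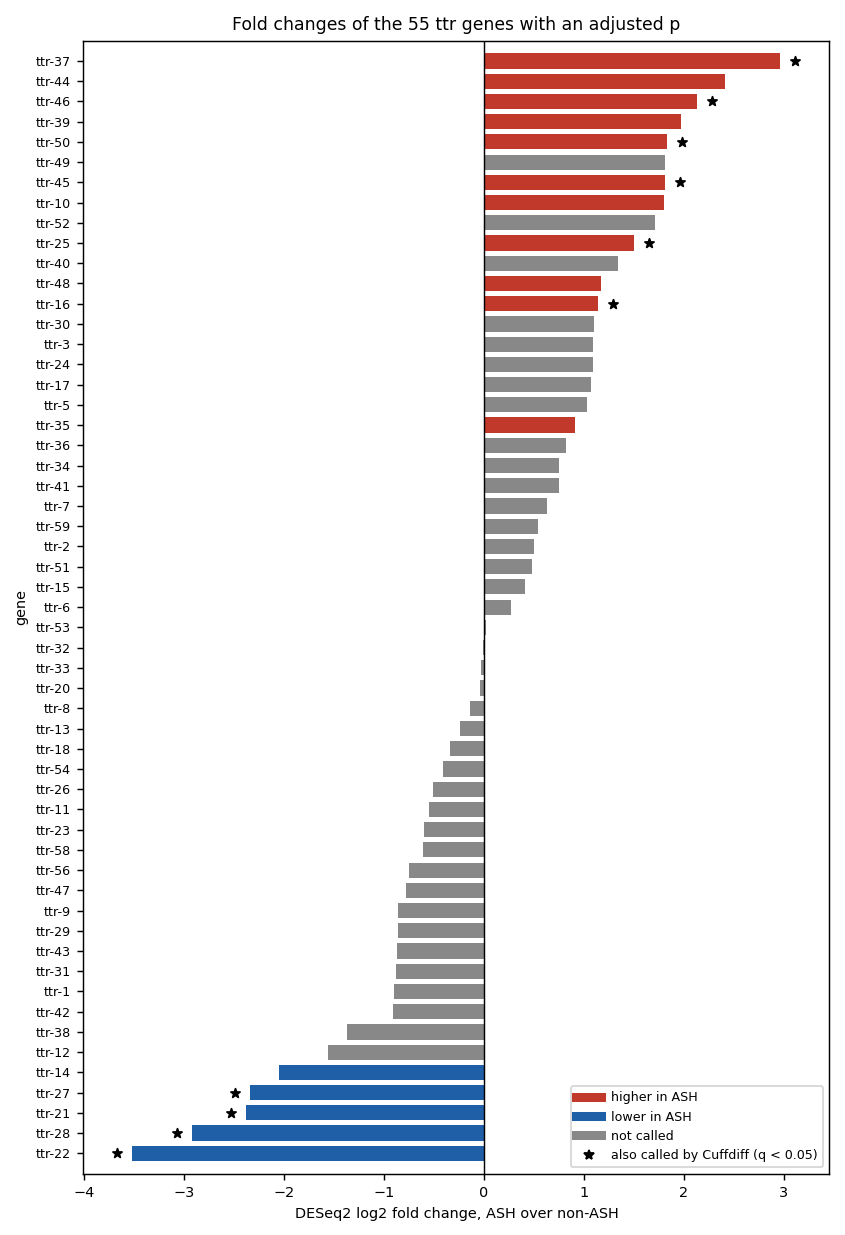
DESeq2 log2 fold change, ASH over non-ASH, of each of the 55 ttr genes with an adjusted p, taken from the deposited comparison of the authors. Red bars are the 11 genes higher in ASH, blue bars the 5 lower and grey bars the 39 not called, and stars mark the 10 genes that Cuffdiff called as well. Fold changes run from -3.51 for ttr-22 to 2.97 for ttr-37, and ttr-49 and ttr-52 are not called although their bars are longer than those of several red genes.

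Of the 11 higher calls, 9 fell on the more abundant members. Of the 30 members at or above the family's median level, 19.9 FPKM as the mean of both groups, 9 were higher and 2 lower in ASH, beside 5.78% and 4.08% of the 5742 tested genes at or above that level. Of the 29 below it, 25 had an adjusted p, and 2 were higher and 3 lower, beside 5.08% and 4.63% of the 11060 tested genes below that level. The mean of both groups itself holds the change, so this is a description only.

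Cuffdiff, the authors' other tool, called fewer members. At a q under 0.05 its calls in the authors' deposited table were 6 members higher, 10.9% of the 55 beside 3.58% of all tested genes, and 4 lower, 7.27% beside 3.53%. All 10 were also called by DESeq2 in the same direction, an agreement of both tools that held for 2.36% of all tested genes on the higher and 2.24% on the lower side. The 6 were ttr-16, ttr-25, ttr-37, ttr-45, ttr-46 and ttr-50, and the 4 were ttr-21, ttr-22, ttr-27 and ttr-28. Calls by DESeq2 that Cuffdiff did not share were ttr-10 (q = 0.0594), ttr-48 (q = 0.0612), ttr-14 (q = 0.0688), ttr-44 (q = 0.128), ttr-35 (q = 0.311) and ttr-39 (q = 0.565) in the authors' deposited table. Over the 16 genes called by DESeq2, the fold changes of the tools differed by at most 0.51 on the log2 scale and never in sign.

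The 2 members with a published role that is described here were not called. TTR-52, the bridging protein introduced above, is made by the intestine in the worm. Its gene was scarce, with 2.32 FPKM in ASH against 0.263 FPKM in non-ASH, and its log2 fold change of 1.71 did not pass (DESeq2 adjusted p = 0.301), per the authors' deposited table. Intestine markers were more abundant in ASH as well, and their part in this value was not tested. TTR-33 is needed to protect dopamine neurons from oxidative damage. Its gene had 19.5 FPKM in ASH against 19.6 FPKM in non-ASH, or -0.03 on the log2 scale (DESeq2 adjusted p = 0.967), per the authors' deposited table. These levels were nearly equal, although with no interval given the table does not bound the difference between the groups.

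Several other members had large fold changes without a call. The largest positive was that of ttr-49, at 15.3 FPKM in ASH against 3.94 FPKM in non-ASH, and a log2 change of 1.81 (DESeq2 adjusted p = 0.127), per the authors' deposited table. Its neighbour on the chromosome, ttr-40, had 3.08 FPKM in ASH against 0.218 FPKM in non-ASH, and a log2 change of 1.35 (DESeq2 adjusted p = 0.315), per the authors' deposited table. On the negative side, ttr-12 had 0.739 FPKM in ASH against 6.18 FPKM in non-ASH, and a log2 change of -1.56 (DESeq2 adjusted p = 0.253), per the authors' deposited table. All 3 were at under 4 FPKM in at least 1 group. For ttr-38 the authors' deposited table listed 1.07 FPKM in ASH against 4.90 FPKM in non-ASH, and a log2 change of -1.37 (DESeq2 adjusted p = 0.132). The far more abundant ttr-42 had 101 FPKM in ASH against 180 FPKM in non-ASH, and a log2 change of -0.90 (DESeq2 adjusted p = 0.450), per the authors' deposited table. Of the 39 members tested and not called, 10 had an unadjusted DESeq2 p under 0.05, 7 with a positive and 3 with a negative fold change, beside 6.74% and 8.73% of all genes tested and not called. The sign of 3 others, ttr-20, ttr-32 and ttr-53, differed between the tools, and these were picked out after their values were seen. Each of them had an absolute DESeq2 fold change under 0.2.

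Members lie on every autosome and on X, and the calls fell on 3 chromosomes. Chromosome V, per the file's own annotation, held 22 members, of which 4 were higher and 4 lower. Of the 10 on chromosome IV, 4 were higher, and of the 12 on X, 3 were higher and 1 lower. None of the 9 members on chromosome III, the 3 on I or the 2 on II was called by DESeq2, nor was any by Cuffdiff. Over all tested protein-coding genes, 7.13% were higher and 5.29% lower on V, 5.37% and 5.56% on IV, 5.89% and 6.33% on X, 3.75% and 2.87% on III, 3.43% and 3.47% on I, and 6.01% and 4.03% on II. With 9 tested members on III and 2 each on I and II, a count of 0 on each is near the share of all genes.

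Many ttr genes sit next to each other in the genome. By the order of protein-coding genes in RefSeq's annotation of WBcel235, 28 of the 58 coding members lay in 12 runs of 2 or 3 ttr genes with no other coding gene between them. In 8 of the 12 runs all fold changes had the same sign, counting genes without an adjusted p, and in 4 they did not. The run of ttr-8 and ttr-32 is among the 8 with ttr-32 at -0.006, which Cuffdiff had at 0.14. With 8 runs of 2 genes and 4 of 3, these counts are a description only. Of the 12 runs, 5 held a called gene and none was called throughout, where 16 of the 55 tested members were called in all. Outside the runs lay 10 of the 16 calls, beside 30 of the 58 coding members.

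The run on chromosome V of ttr-27, ttr-28 and ttr-29 held 2 of the 5 lower genes, and the third, ttr-29, had 15.2 FPKM in ASH against 24.7 FPKM in non-ASH and a log2 change of -0.86 (DESeq2 adjusted p = 0.434), per the authors' deposited table. The run of ttr-24, ttr-25 and ttr-26, also on V, was mixed. There ttr-25 was higher, ttr-24 had a log2 change of 1.09 (DESeq2 adjusted p = 0.0903) and ttr-26 had a log2 change of -0.51 (DESeq2 adjusted p = 0.636), per the authors' deposited table. As levels, ttr-24 stood at 144 FPKM in ASH against 68.8 FPKM in non-ASH, and ttr-26 at 58.1 FPKM in ASH against 83.7 FPKM in non-ASH. So neighbours in this run lay on opposite sides, with only ttr-25 past the threshold. Next to ttr-16 on chromosome IV, ttr-17 had 253 FPKM in ASH against 125 FPKM in non-ASH, and a log2 change of 1.07 (DESeq2 adjusted p = 0.176), per the authors' deposited table. Its log2 fold change was close to the 1.14 of ttr-16, which was called. The neighbours ttr-51 and ttr-45 on IV differed more, with log2 fold changes of 0.49 and 1.81, and only ttr-45 was called. On X, ttr-36 had 49.5 FPKM in ASH against 26.9 FPKM in non-ASH, and a log2 change of 0.82 (DESeq2 adjusted p = 0.173), per the authors' deposited table and beside the 0.91 of ttr-35. In the chromosome III run of ttr-3, ttr-2 and ttr-1 the log2 fold changes were 1.09, 0.50 and -0.89, none of them called, in the authors' deposited table. That run held genes of very different level, with 3.14, 1023 and 57.6 FPKM in ASH and 0.843, 666 and 109 FPKM in non-ASH.

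**Figure D3:**
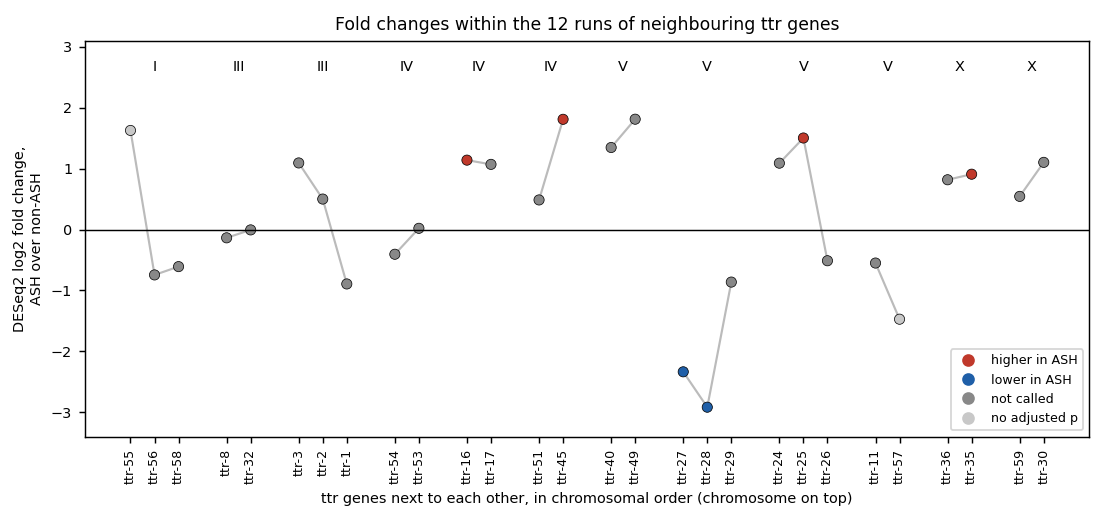
DESeq2 log2 fold change, ASH over non-ASH, of the 28 ttr genes that lie in 12 runs of neighbouring genes, in chromosomal order with the chromosome above each run. Lines join genes of a run, and colours give the call. The run of ttr-27, ttr-28 and ttr-29 lies wholly below 0, while the runs that start with ttr-55, ttr-3, ttr-54 and ttr-24 cross it.

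A list of 20 genes covered engulfment, the process in which TTR-52 acts, that is the recognition and uptake of dying cells and the exposure of phosphatidylserine. The list was not limited to genes that act with TTR-52 or that promote uptake. By DESeq2 0 were higher and 0 lower, beside 5.32% and 4.44% of all tested genes, and for a list of this length a count of 0 is near those shares. At an unadjusted DESeq2 p under 0.05 there were 0 with a positive and 3 with a negative fold change, beside the 6.74% and 8.73% of all uncalled genes given above. The median log2 fold change of the list was -0.19, beside -0.09 over all tested genes. Cuffdiff called 1 lower, the integrin alpha gene ina-1, with 2.31 FPKM in ASH against 7.75 FPKM in non-ASH (q = 0.0409) in the authors' deposited table. The gene of CED-1, the receptor that TTR-52 binds, had 24.1 FPKM in ASH against 27.9 FPKM in non-ASH (log2 fold change -0.19 per the authors' deposited table, DESeq2 adjusted p = 0.720). That of PSR-1, another receptor for phosphatidylserine, had 43.8 FPKM in ASH against 44.7 FPKM in non-ASH (log2 fold change 0.06 per the authors' deposited table, DESeq2 adjusted p = 0.923). Over the list, DESeq2 log2 fold changes ran from -1.16 to 0.49 in the authors' deposited table, and 5 of the 20 genes, ced-5, ced-7, ced-8, ina-1 and abl-1, had FPKM at least 2-fold lower in ASH without a DESeq2 call. The annexin gene nex-1 was the second most abundant of the list, at 341 FPKM in ASH against 293 FPKM in non-ASH (log2 fold change 0.20 per the authors' deposited table, DESeq2 adjusted p = 0.733). The genes named from this list were picked for their roles, other than the 5 with 2-fold lower FPKM, which were named after their values were seen.

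The enzymes of the other transthyretin-related family, the 5-hydroxyisourate hydrolases of urate breakdown, are encoded by 2 worm genes. For R09H10.3 the authors' deposited table listed 52.3 FPKM in ASH against 21.5 FPKM in non-ASH, a log2 fold change of 1.14 that was not called (DESeq2 adjusted p = 0.104). The other, ZK697.8, was near 0, at 0.0276 FPKM in ASH against 0.0715 FPKM in non-ASH, and had no adjusted p.

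**Figure D4:**
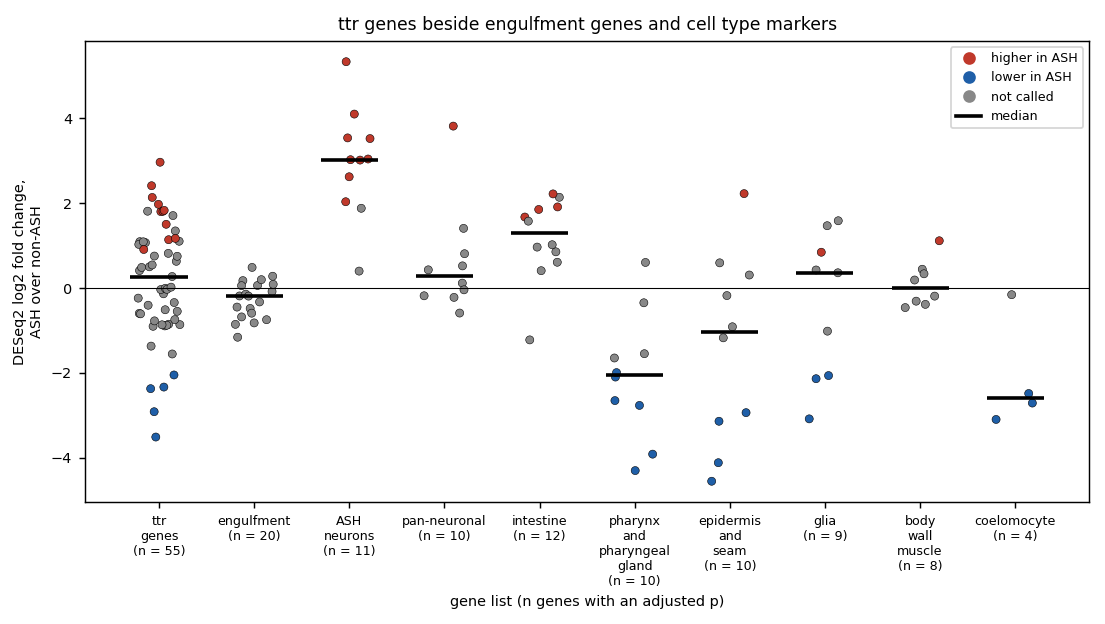
DESeq2 log2 fold change, ASH over non-ASH, of the 55 ttr genes beside those of 20 engulfment genes and 8 lists of cell type markers, with 1 point per gene, the median as a bar and the call as colour. The ttr genes spread on both sides of 0 around a median of 0.27, the engulfment genes lie between -1.16 and 0.49, the ASH markers lie above 0 around 3.03, and the pharynx markers lie mostly below it around -2.05.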

How the data were processed

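RNA of sorted ASH neurons and of non-ASH cells, 5 libraries each, was sequenced from strand-specific poly(A)-selected libraries, per the labels' protocols. The submitters' processing notes name Bowtie2 2.2.1 and TopHat2 2.0.13, Cufflinks with Cuffdiff, and HTSeq with DESeq2. No coordinates are printed, because the build is not stated, nor are the annotation and the counting rules. The authors' deposited table holds 1 FPKM per group with 1 added, which was subtracted here, as well as log2 fold changes and p-values and q-values of both tools. Cuffdiff's fold change is the log2 ratio of the deposited FPKM, added 1 included. The authors' DESeq2 adjusted p equals a Benjamini-Hochberg adjustment over 16802 genes, called tested here. No test was refitted, since no column of single libraries was used, and the tests planned on counts per library were not run.

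Of 46273 rows 1 repeat was dropped. Calls were counted with Python 3.11.15 and pandas 2.3.3, and the counting was tested on simulated data. Neighbours were taken from RefSeq gene order, which held 58 members by symbol. Genes were named by rule, namely every member called by either tool, the 5 highest per group, ttr-52 and ttr-33, the 3 largest uncalled fold changes per direction, called engulfment genes and both hydrolase genes. Named besides, outside the rule, were neighbours, members without an adjusted p and members whose tools differ in sign. Further engulfment genes, uncalled ASH markers and single markers of other cell types were also named outside it. Members, lists and rules were chosen with earlier results of these data known. Protein identity and promoter motifs, also planned, were not analysed here. Alternatives were Cuffdiff's q, a stricter adjusted p of 0.01, a 2-fold minimum, a 5 FPKM floor, calls by both tools, current symbols, and pseudocounts of 0.1 and 5 on the log2 ratio of FPKM. Scaling to the protein-coding total, centring on all tested genes and a protein-coding background were added after the data were seen.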

Additional observations from a re-analysis of the deposited data

How the results depend on the processing

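The count of 11 members higher in ASH fell to 6 with Cuffdiff's q and to 6 with calls by both tools, and the 5 lower members fell to 3 with a DESeq2 adjusted p under 0.01. The cause was not tested. The other alternatives run on these counts gave 9 to 11 higher and 4 or 5 lower. Of the engulfment genes, Cuffdiff called 1 lower where DESeq2 called 0. The median log2 ratio of FPKM over all members was 0.14 with a pseudocount of 1. It was 0.14 with 0.1, 0.058 with 5, 0.47 for members of at least 5 FPKM, 0.15 as DESeq2 fold change over the 58 members that have one (against 0.27 for the 55 with an adjusted p, over 1.5 times as much) and 0.25 centred on all tested genes. Scaling both groups to their protein-coding total changed the ratio of the groups by -0.27 on the log2 scale. With a pseudocount of 1 it moved single members by between -0.27 and 0 and brought the median to 0, the value of ttr-4, and 0 of the 16 called members changed sign. Of the 28 ttr genes chosen by rule, 6 lost their call with Cuffdiff's q and the other 22 kept theirs or stayed uncalled. No paired analysis was possible because the table holds no columns of single libraries, and for the same reason no library could be left out. Depth is unknown, so ratios of members near 0 FPKM have no stated precision.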
